A study of Homo sapiens with 6 samples.

Results

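The genes described here encode the subunits of the proteasome and their dedicated helpers, chosen by name: every row whose symbol is PSMA, PSMB, PSMC, PSMD, PSME, PSMF or PSMG followed by digits only. The rule found 48 of the 24462 symbols counted, of which 46 had counts, and all 46 could be tested. They were measured in H460, an established human large-cell lung cancer line, by sequencing the 3′ ends of polyadenylated RNA. The depleted group (3 libraries) was held for 24 h in RPMI 1640 without glutamine and with dialyzed serum, and the replete group (3 libraries) is labelled glutamine-replete, with no separate account of its serum over those hours. Stock cultures grew in RPMI 1640 with fetal bovine serum and antibiotics, the labels name no transgene or drug in either group, and 1 cell line was used. The labels leave unsaid whether replicate libraries are separate cultures, and each p-value then covers only library-to-library spread, possibly technical.

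The proteasome is the barrel-shaped protease that degrades proteins tagged with ubiquitin and returns their amino acids to the cell. Its 20S core is a stack of rings: outer rings of alpha subunits (PSMA) form the gate, and inner rings of beta subunits (PSMB) hold the proteolytic sites. The 19S cap binds ubiquitin chains, removes them and unfolds the substrate with a ring of ATPases (PSMC) inside a set of non-ATPase subunits (PSMD). Other activators (PSME) can take the place of the cap, PSMF1 encodes the regulator PI31, and PSMG proteins help to assemble the core. When proteasomes fail, the transcription factor NRF1, encoded by NFE2L1, raises many subunit genes together through antioxidant response elements in their promoters, and its relative NRF2, encoded by NFE2L2, can act on such elements too.

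The libraries held 7550849 to 10914899 counts. Levels in the text are CPM (counts scaled to a common library size) after TMM scaling, which takes most genes as unchanged between libraries. On this scaling 78.6% of all genes tested had an edgeR adjusted p under 0.05, so the calls themselves do not bear that assumption out. Log2 fold changes are depleted over replete on the same scaling. With library totals in place of the TMM factors, the median gene moved by −0.23 on the log2 scale, so each change is relative to the chosen scaling. Depleted replicate 2 lay farthest from its group mean for 27 of the 46 tested members, against 14 for depleted replicate 1 and 5 for depleted replicate 3. The keratin genes KRT8, KRT18 and KRT19 ran from 72.1 to 1414 CPM of library totals in all libraries, whereas EPCAM and CDH1, which also mark epithelium, did not exceed 0.505 CPM. The 3 endothelial markers together stayed at or below 0.126 CPM and the 5 blood markers at or below 1.26 CPM. The 4 fibroblast markers summed to 10.8 to 80.0 CPM in depleted and 15.3 to 26.9 CPM in replete libraries, with the highest COL1A1 level, 56.5 CPM, in depleted replicate 3, and their part in the results was not tested.

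Antioxidant response elements give a way to look at the promoters of these genes beside their changes. RefSeq windows from 250 bases before to 50 bases after the annotated start (GRCh38.p14) were found for 42 of the 48 members, 51 windows in all. None was found for PSMA7, PSMB1, PSMB6, PSMB7, PSMD4 and PSMG3. Some genes, among them PSMA4, PSMC5 and PSMG2, have several windows, so counts of windows are not counts of genes. The core letters TGACNNNGC, searched on both strands, occurred in 15 of the 51 windows (29.4%), in 13.3% of all 35116 windows and in 14.4% of those of tested genes. They occurred in 7 of 19 windows of members that rose and in 7 of 19 windows of members that fell. The 4 windows below hold a match, shown in capitals, and are printed because PSMC4 and PSMD12 rose and PSMB3 and PSME1 fell with the same letters near their starts. The match begins 165 bases before the start in PSMD12 (chr17:67366528-67366827, minus strand), 104 bases before it in PSMB3 (chr17:38752491-38752790, plus strand) and 86 bases before it in PSME1 (chr14:24135944-24136243, plus strand), and 27 bases after it in PSMC4 (chr19:39970915-39971214, plus strand).
PSMC4: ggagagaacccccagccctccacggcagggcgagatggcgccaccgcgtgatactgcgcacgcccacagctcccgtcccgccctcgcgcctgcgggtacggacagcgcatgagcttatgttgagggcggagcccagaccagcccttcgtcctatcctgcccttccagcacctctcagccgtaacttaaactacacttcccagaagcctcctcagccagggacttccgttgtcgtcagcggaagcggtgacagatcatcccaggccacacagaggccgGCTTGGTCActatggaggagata
PSMD12: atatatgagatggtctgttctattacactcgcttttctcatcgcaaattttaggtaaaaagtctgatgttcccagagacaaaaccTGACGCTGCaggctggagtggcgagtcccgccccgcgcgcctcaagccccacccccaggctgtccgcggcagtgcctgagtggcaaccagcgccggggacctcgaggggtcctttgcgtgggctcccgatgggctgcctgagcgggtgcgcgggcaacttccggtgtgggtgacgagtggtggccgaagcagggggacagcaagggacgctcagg
PSMB3: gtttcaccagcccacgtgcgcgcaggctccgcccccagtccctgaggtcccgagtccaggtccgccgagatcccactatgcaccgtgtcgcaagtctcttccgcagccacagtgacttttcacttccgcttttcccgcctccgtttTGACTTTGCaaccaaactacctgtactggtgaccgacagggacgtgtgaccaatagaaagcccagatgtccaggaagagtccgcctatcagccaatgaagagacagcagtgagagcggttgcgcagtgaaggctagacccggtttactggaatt
PSME1: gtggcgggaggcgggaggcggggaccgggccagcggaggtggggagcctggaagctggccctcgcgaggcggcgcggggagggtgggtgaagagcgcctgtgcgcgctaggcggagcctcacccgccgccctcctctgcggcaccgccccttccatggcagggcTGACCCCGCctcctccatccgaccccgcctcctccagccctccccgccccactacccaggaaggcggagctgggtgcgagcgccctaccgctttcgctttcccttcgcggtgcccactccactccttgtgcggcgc

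The other letters searched were 4 sets, in the same windows and on both strands. ATF4 composite letters (TGATGNAA) occurred in 1 member window (1.96%, against 3.62% of all windows and 1.97% of those of tested genes). The ETS core CCGGAAG occurred in 15 of 51 member windows (29.4%, against 10.3% of all windows and 16.6% of those of tested genes), in 7 of 19 windows of members that rose and in 4 of 19 of those that fell. Among the ATPase genes, PSMC1, PSMC2 and PSMC6 held it. CCAAT occurred in 20 member windows (39.2%, against 34.6% of all windows and 34.7% of those of tested genes). The TATA letters TATAAA occurred in 5 member windows (9.8%, against 11.5% of all windows and 6.41% of those of tested genes), those of PSMC1, PSMC2, PSMC5, PSMD8 and PSMA8. A match is a description of the letters and not a binding site.

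The first comparison was how the subunit genes as a whole differed after 24 h without glutamine. They split, with 17 of 46 higher and 20 lower in depleted cells by edgeR's quasi-likelihood test (Benjamini-Hochberg adjusted p under 0.05), while 39.1% of all 12739 genes tested were higher and 39.4% lower. The 37 members called are 80.4% of those tested, near the 78.6% of all genes. The counts given for each class below stand beside these same shares over all genes. The libraries of the groups did not overlap for 37 members (80.4%), against 80.9% of all genes. The members' median log2 fold change was −0.06, beside −0.02 over all genes. Their changes were mostly small: 3 rose and 8 fell by more than 2-fold, 23.9% of the members against 45.4% of all genes, and the median size of the change was 0.38 on the log2 scale against 0.90 over all genes. The changes ran from −2.41 for PSMB6 to 1.59 for PSMC1. With library totals alone, 10 members were higher and 25 lower, against 32.4% and 46.5% of all genes. In total, 10 of the 17 increases and 15 of the 20 decreases passed in the same direction in all 16 alternatives other than the test against a 1.5-fold change.

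**Figure D1:**
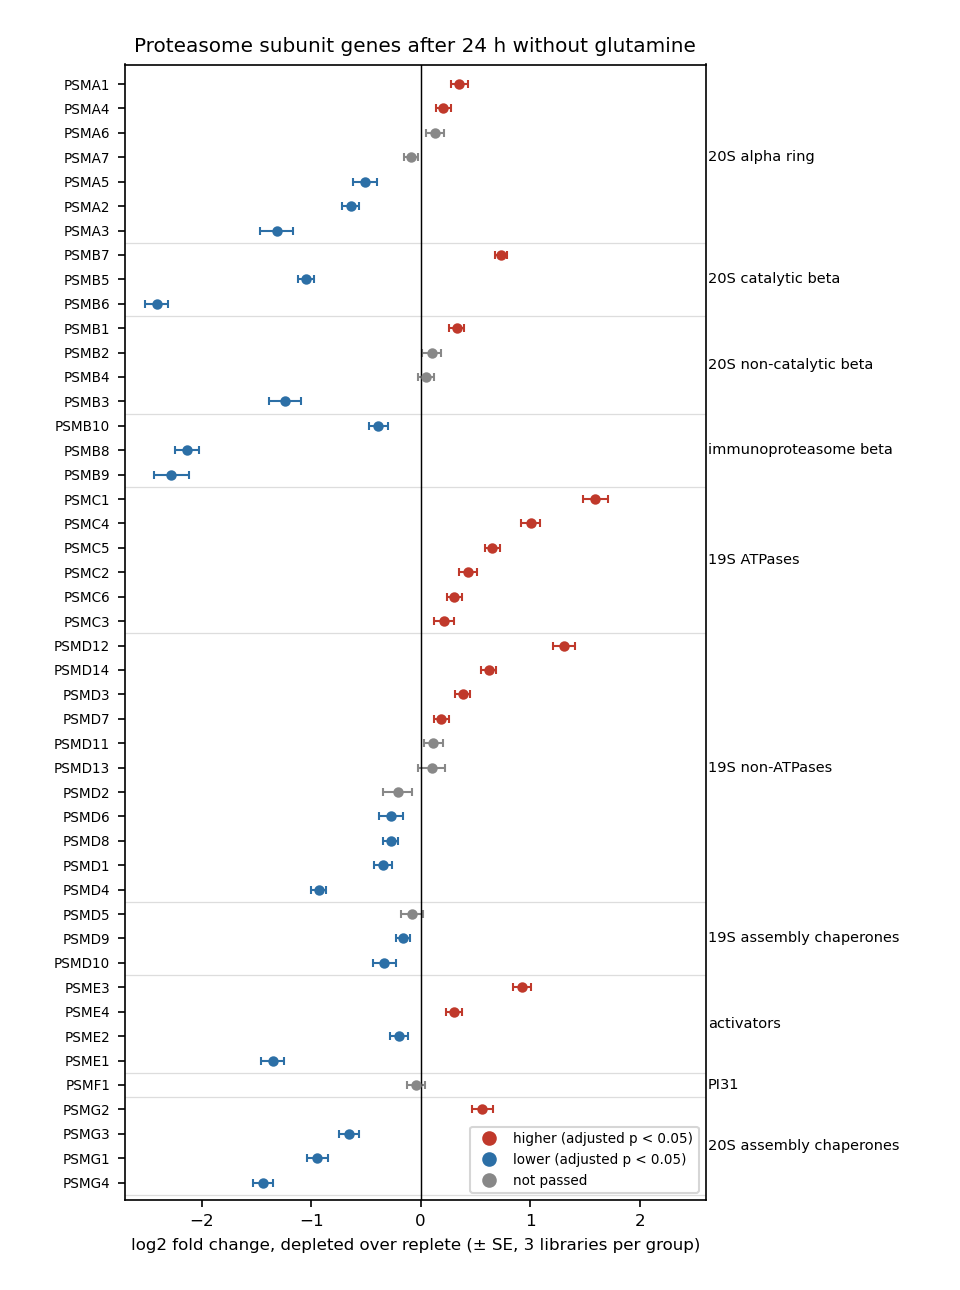
Log2 fold change (depleted over replete, TMM scaling, ± SE) of the 46 tested subunit genes on the horizontal axis, ordered by class and coloured by the call in edgeR's test. All 6 ATPase genes of the 19S cap lie to the right of 0 (PSMC3 turns to −0.017 with library totals) and all 3 immunoproteasome genes to the left, while each class of the 20S core has members on both sides.

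The second comparison set the core beside the cap. The cap's transcripts grew relative to those of the core, as ATPase genes rose and several core genes fell. The summed counts of the 17 cap genes divided by those of the 14 detected genes of the constitutive core gave ratios of 0.899, 0.903 and 0.909 in the depleted libraries and 0.751, 0.759 and 0.751 in the replete libraries. The groups did not overlap in this ratio, which does not depend on the scaling of libraries. The core held 0.352% ± 0.0105 (SD, n = 3) of all counts in depleted and 0.428% ± 0.00351 in replete cells, and the cap held 0.318% ± 0.0101 and 0.323% ± 0.00211. On the TMM scale the log2 ratio of these sums was −0.055 for the core and 0.21 for the cap. Within the cap, the ratio of ATPase to non-ATPase counts was 0.463 ± 0.0307 in depleted and 0.275 ± 0.00726 in replete cells (n = 3). No test was made of these sums, which weigh abundant genes most.

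**Figure D2:**
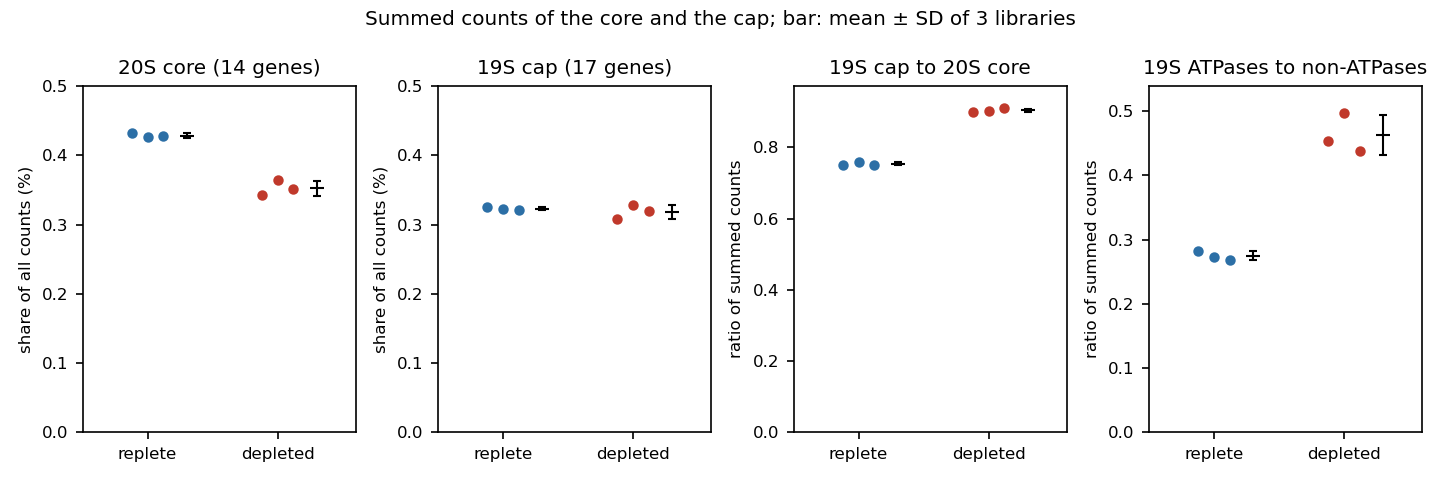
Summed counts per library, with the share of all counts (%) in the left panels and ratios of summed counts in the right panels. Points are libraries and bars the mean ± SD of 3. The 3 depleted libraries lie above the 3 replete ones in both ratios, at 0.899 to 0.909 against 0.751 to 0.759 for the cap over the core.

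The alpha ring, which guards entry to the core, moved in both directions, with 2 of 7 tested genes higher, 3 lower and 2 not past the threshold (median −0.09). PSMA3 was at 109, 68.1 and 101 CPM in the depleted libraries and at 240.5, 223 and 227 CPM in the replete libraries. All depleted libraries were low, depleted replicate 2 the lowest, and the log2 fold change was −1.31 (SE 0.15, edgeR adjusted p = 3.08e-05). PSMA2 was at 73.0, 74.1 and 76.7 CPM in depleted and 113, 117 and 118 CPM in replete libraries. The groups were far apart beside their spread, and PSMA2 fell by 0.64 (edgeR adjusted p = 4.65e-06). Its exons overlap those of MRPL32 on the other strand by 24 bases, and no source says that reads were assigned by strand. PSMA5, also of the alpha ring, fell by 0.51. PSMA1 was at 246, 217 and 218 CPM in depleted and 184, 175 and 174 CPM in replete libraries. It rose by 0.35 (edgeR adjusted p = 0.000738), but with library totals alone its log2 fold change was 0.13 (adjusted p = 0.14). PSMA4 was at 185, 189 and 198 CPM in depleted and 166, 161 and 168 CPM in replete libraries, a rise of 0.21 (edgeR adjusted p = 0.0146). This call was lost when depleted replicate 3 (adjusted p = 0.0566) or one of replete replicates 1 (0.0718) and 2 (0.106) was left out, and with library totals the value was −0.019. PSMA6 and PSMA7 had log2 fold changes of 0.13 and −0.09 and did not pass, and with library totals PSMA6 was at −0.10. PSMA7 passed as lower with library totals (−0.31, adjusted p = 0.000444) and without depleted replicate 2 (−0.12, adjusted p = 0.0138). PSMA8, the testis-type alpha subunit, had no count in any library, which allows up to 0.275 to 0.397 CPM of library totals.

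The catalytic subunits of the constitutive core did not move as 1 unit: the genes of the caspase-like and chymotrypsin-like sites fell and that of the trypsin-like site rose. PSMB6, the caspase-like subunit, was at 73.1, 79.6 and 57.7 CPM in the depleted libraries and at 357, 379 and 381 CPM in the replete libraries. Every depleted library lay far below every replete one, a 5.31-fold decrease and the largest change of all members (log2 fold change −2.41, SE 0.10, edgeR adjusted p = 3.2e-10). PSMB5, the chymotrypsin-like subunit that binds the drug bortezomib, was at 202, 237 and 209 CPM in depleted and 448, 446 and 441 CPM in replete libraries. It fell by 1.05 (SE 0.07, edgeR adjusted p = 2.56e-08), with depleted replicate 2 the highest of the depleted libraries. PSMB7, the trypsin-like subunit, was at 1039, 1096 and 1059 CPM in depleted and 644, 637 and 640.3 CPM in replete libraries. It rose 1.66-fold (log2 fold change 0.73, SE 0.06, edgeR adjusted p = 8.09e-08), with narrow spread in both groups. These 3 calls held in all 16 alternatives other than the test against 1.5-fold, and also in that test.

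Among the beta subunits without a proteolytic site, PSMB3 fell and the others changed little. PSMB3 was at 15.2, 11.9 and 14.4 CPM in depleted and 38.7, 30.1 and 29.1 CPM in replete libraries, so the groups did not overlap, and it fell by 1.24 (SE 0.15, edgeR adjusted p = 4.31e-06). PSMB1 was at 509.9, 592 and 533 CPM in depleted and 443, 436 and 423 CPM in replete libraries. It rose by 0.33 (edgeR adjusted p = 0.000735), and with library totals alone its value was 0.10 (adjusted p = 0.181). PSMB2 overlapped between groups, at 135, 163 and 142 CPM in depleted and 142, 136 and 133 CPM in replete libraries (log2 fold change 0.10, or −0.13 with library totals, edgeR adjusted p = 0.289 and 0.175). PSMB4, with a log2 fold change of 0.05, did not pass either, and with library totals it was −0.18 (adjusted p = 0.0293).

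The immunoproteasome subunits, which replace the catalytic subunits in cells exposed to interferon and shape peptides for antigen presentation, all fell. PSMB8, the counterpart of PSMB5, was at 19.9, 16.9 and 15.6 CPM in depleted and 78.3, 77.1 and 75.3 CPM in replete libraries. It fell by 2.13 on the log2 scale (SE 0.11, edgeR adjusted p = 1.08e-09). PSMB9, the counterpart of PSMB6, was at 5.13, 6.87 and 4.85 CPM in depleted and 28.0, 24.6 and 28.8 CPM in replete libraries, and fell by 2.28 (SE 0.16, edgeR adjusted p = 2.33e-08). Each gene sits on 8 rows of every file, of which only 1 held counts, and both overlap the exons of the antisense gene PSMB8-AS1, PSMB8 on the opposite strand and PSMB9 on the same strand. PSMB8-AS1 itself was at 21.9 ± 2.03 CPM in depleted and 34.2 ± 5.41 CPM in replete cells (n = 3). PSMB10, the counterpart of PSMB7, was at 61.3, 68.2 and 72.9 CPM in depleted and 88.3, 89.5 and 86.3 CPM in replete libraries. The groups did not overlap and PSMB10 fell by 0.39 (edgeR adjusted p = 0.0012), but in the fit that removes a trend over GC content and transcript length the value was −0.14 (adjusted p = 0.141). PSMB11, the thymus-specific subunit, had no count.

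**Figure D3:**
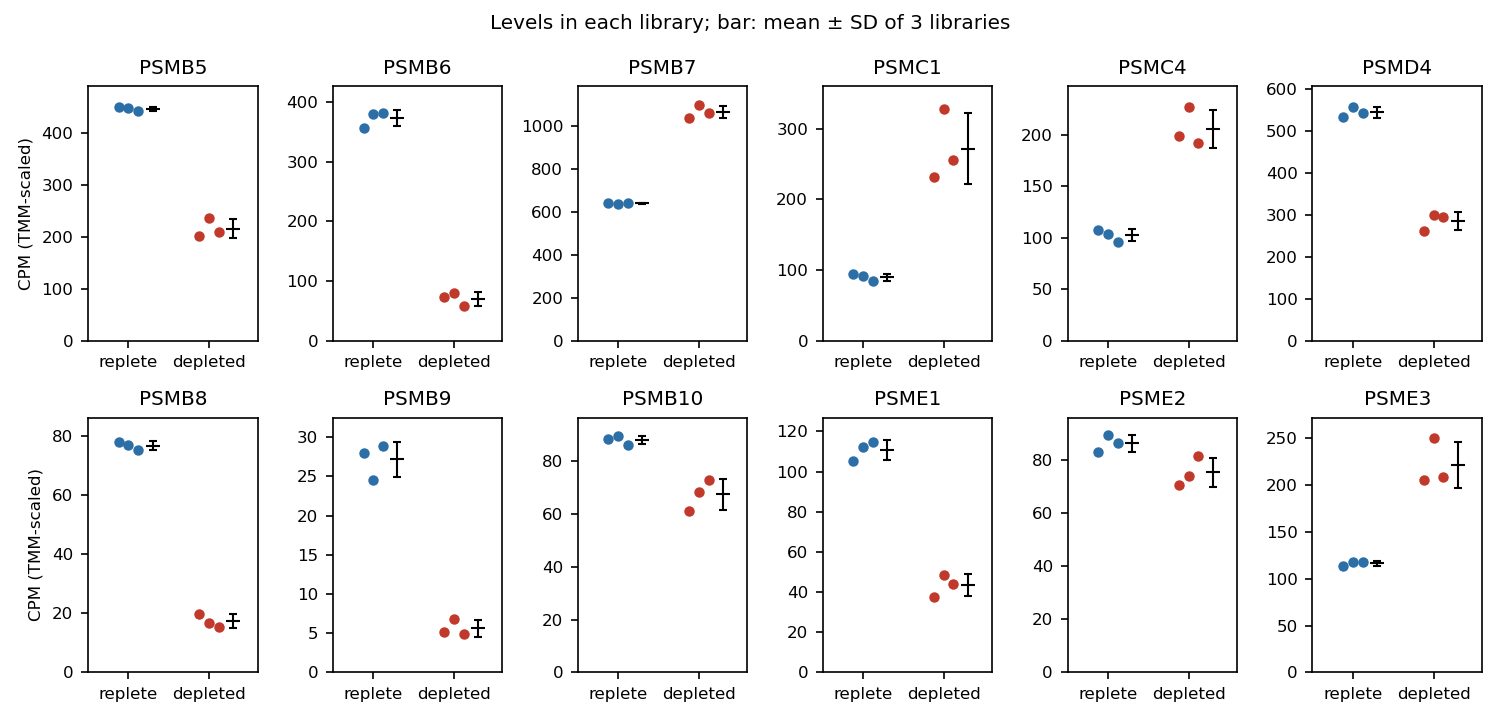
Levels (TMM-scaled CPM, axes from 0) of 12 members in each library, with points for libraries and bars for the mean ± SD of 3. PSMB5, PSMB6, PSMD4, PSMB8, PSMB9, PSMB10, PSME1 and PSME2 are lower, and PSMB7, PSMC1, PSMC4 and PSME3 higher, in each depleted library than in any replete one.

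Ratios within a library compare the transcripts of partner subunits without any scaling. PSMB8 to PSMB5 was 0.0985, 0.0713 and 0.0746 in the depleted libraries and 0.175, 0.173 and 0.171 in the replete libraries, so PSMB8 fell further than its constitutive partner. PSMB10 to PSMB7 was 0.0591, 0.0623 and 0.0689 in depleted and 0.137, 0.141 and 0.135 in replete libraries. The groups did not overlap in either ratio, with differences of −1.10 and −1.12 in mean log2 ratio. PSMB9 to PSMB6 was 0.0702, 0.0863 and 0.0841 in depleted and 0.0785, 0.0649 and 0.0756 in replete libraries, overlapping ranges in which both partners had fallen (difference 0.15 in mean log2 ratio, two-sided exact permutation p = 0.3). For the other 5 of the 6 ratios tested, the two-sided exact permutation p was 0.1, the smallest that 3 against 3 libraries can give, and 0.12 adjusted over the 6, so none can pass 0.05 in this design.

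**Figure D4:**
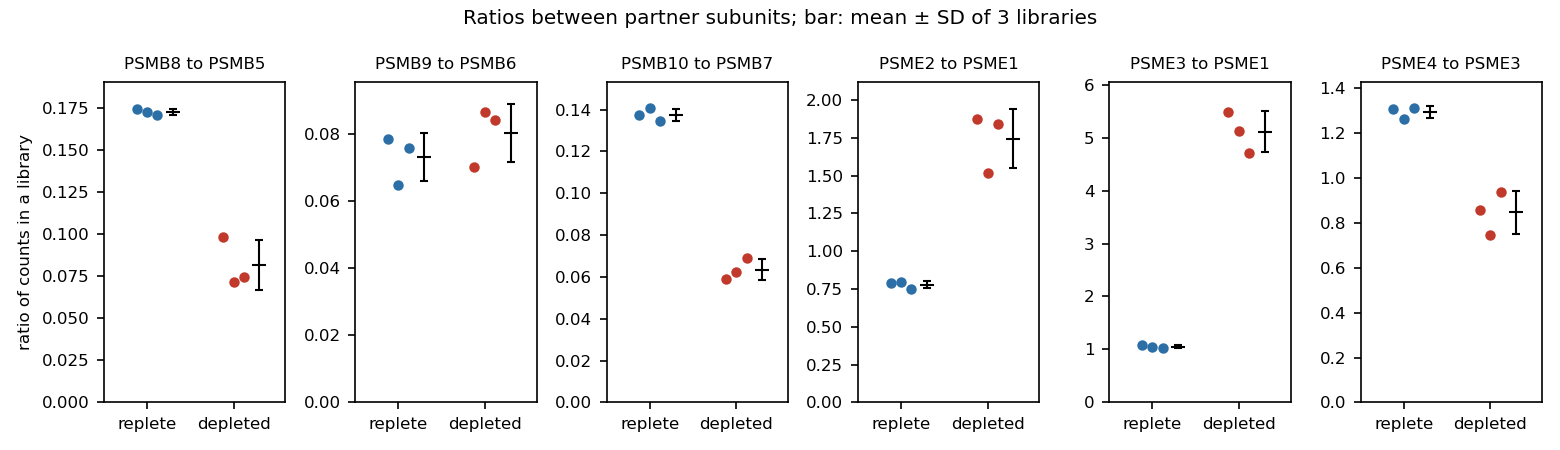
Ratio of the counts of a pair of genes within each library (axes from 0), with points for libraries and bars for the mean ± SD of 3. The groups are apart for every pair shown except PSMB9 to PSMB6, where ratios from 0.0649 to 0.0863 overlap.

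The ATPase ring of the cap, which unfolds substrates and opens the core's gate, was the one class in which every tested gene rose: 6 of 6, with a median log2 fold change of 0.54. Of all genes tested, 39.1% were higher. PSMC1 was at 232, 328 and 256 CPM in the depleted libraries and at 94.0, 91.4 and 84.5 CPM in the replete libraries. All depleted libraries were high, depleted replicate 2 the highest, and the rise was 3.02-fold (log2 fold change 1.59, SE 0.12, edgeR adjusted p = 1.1e-07). The exons of PSMC1 overlap those of NRDE2 on the other strand by 3157 bases, and NRDE2 was at 12.9 ± 1.16 CPM in depleted and 10.6 ± 0.586 CPM in replete cells (n = 3). How reads of the shared bases were assigned is not given. The NRDE2 level therefore cannot show its part in the PSMC1 counts, which was not tested. PSMC4 was at 199, 227 and 192 CPM in depleted and 107, 104 and 96.0 CPM in replete libraries, a 2.01-fold rise without overlap (SE 0.09 on the log2 scale, edgeR adjusted p = 1.73e-07). PSMC5 rose by 0.65 and PSMC2 by 0.43, and with PSMC1 and PSMC4 they passed as higher in all 16 alternatives other than the test against 1.5-fold. PSMC5 shares 332 exon bases with FTSJ3 on the other strand. FTSJ3 was at 24.4 ± 3.80 CPM in depleted and 29.5 ± 0.524 CPM in replete cells (n = 3). PSMC6 rose by 0.31 (edgeR adjusted p = 0.00113), and with library totals its value was 0.079 (adjusted p = 0.298). PSMC3 rose by 0.21 (edgeR adjusted p = 0.0463). Its call was lost without depleted replicate 2 (adjusted p = 0.0514), depleted replicate 3 (0.0509) or replete replicate 1 (0.0591), replicate 2 (0.213) or replicate 3 (0.154), and with library totals the value was −0.017. With library totals alone, 4 of the 6 were higher and none lower.

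The non-ATPase subunits of the cap, which hold its ubiquitin receptors, deubiquitinase and scaffold, split evenly, with 4 of 11 higher, 4 lower and 3 not past the threshold (median 0.10). PSMD12, a scaffold subunit of the lid, was at 108, 88.7 and 102 CPM in depleted and 36.5, 40.7 and 43.6 CPM in replete libraries. It rose 2.48-fold without overlap (log2 fold change 1.31, SE 0.10, edgeR adjusted p = 7.77e-08). PSMD14, the deubiquitinase that cuts ubiquitin chains from substrates as they enter, was at 215, 232 and 217 CPM in depleted and 147, 141 and 143 CPM in replete libraries, and rose by 0.62 (edgeR adjusted p = 2.79e-06). PSMD3, a lid subunit, rose by 0.38 and PSMD7, the partner of PSMD14, by 0.19 (edgeR adjusted p = 0.0211). The PSMD7 call was lost without depleted replicate 3 (adjusted p = 0.0647) or replete replicate 1 (0.0658), replicate 2 (0.103) or replicate 3 (0.118), and with library totals the value was −0.038.

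PSMD4, a ubiquitin receptor of the cap, went the other way, at 261, 301 and 294 CPM in depleted and 533, 558 and 542 CPM in replete libraries. It fell by 0.93 without overlap (SE 0.07, edgeR adjusted p = 5.52e-08). PSMD1, a large base subunit that carries docking sites for ubiquitin receptors, was at 115, 142 and 128 CPM in depleted and 161, 167 and 159.5 CPM in replete libraries, and fell by 0.34 (edgeR adjusted p = 0.00232). PSMD8 fell by 0.27 (edgeR adjusted p = 0.00335), and with the GC and length trend removed its value was −0.15 (adjusted p = 0.0513). PSMD6 fell by 0.27 (edgeR adjusted p = 0.0417), with adjusted p from 0.0577 to 0.103 when any library other than depleted replicate 1 was left out. PSMD2, PSMD11 and PSMD13 had log2 fold changes of −0.21, 0.12 and 0.10 and did not pass. With library totals, PSMD2 passed as lower (−0.44, adjusted p = 0.0085), and PSMD11 and PSMD13 had values of −0.11 and −0.13. Without depleted replicate 2, PSMD2 passed as lower (−0.36, adjusted p = 0.000228) and PSMD11 as higher (0.22, adjusted p = 7.08e-05). PSMD13 was at 146 CPM in that library against 106.8 and 102.7 CPM in the other depleted libraries.

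PSMD5, PSMD9 and PSMD10 encode chaperones that guide assembly of the cap's base and are absent from the finished particle. PSMD10, also called gankyrin, was at 45.3, 36.4 and 41.6 CPM in depleted and 55.7, 50.1 and 49.5 CPM in replete libraries, and fell by 0.33 (edgeR adjusted p = 0.0104). PSMD9 was at 181, 173 and 181 CPM in depleted and 201, 199 and 199 CPM in replete libraries, a small difference of −0.16 without overlap (edgeR adjusted p = 0.0399). This call was lost without any 1 library other than depleted replicate 2 (adjusted p from 0.0551 to 0.0857). PSMD9 shares 436 exon bases with WDR66 on the same strand, which was at 17.9 ± 4.85 CPM in depleted and 0.930 ± 0.374 CPM in replete cells (n = 3). PSMD5 was at 32.05 to 32.6 CPM in depleted and 31.4 to 36.6 CPM in replete libraries (log2 fold change −0.08), and did not pass, but it passed as lower with library totals (−0.31, adjusted p = 0.0127).

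The activators that dock to the core in place of the cap also split. With PSME2, PSME1 forms the interferon-inducible PA28 ring. PSME1 was at 37.6, 48.7 and 44.2 CPM in depleted and 105, 112 and 115 CPM in replete libraries. It fell by 1.35 without overlap (SE 0.10, edgeR adjusted p = 4.94e-08). PSME2 was at 70.5, 74.0 and 81.4 CPM in depleted and 83.0, 89.5 and 86.4 CPM in replete libraries, and fell by 0.20 (edgeR adjusted p = 0.0472). Its call was lost when depleted replicate 1 (adjusted p = 0.159) or one of replete replicates 2 (0.118) and 3 (0.097) was left out, and the value was −0.01 with the GC and length trend removed. PSME3, the nuclear PA28 gamma activator, was at 206, 249.99 and 208 CPM in depleted and 114, 118 and 118 CPM in replete libraries, a 1.9-fold rise without overlap (log2 fold change 0.92, SE 0.09, edgeR adjusted p = 4.38e-07). PSME4, which encodes the large activator PA200, was at 177, 186 and 195 CPM in depleted and 148, 149 and 155 CPM in replete libraries, and rose by 0.30 (edgeR adjusted p = 0.00175). With library totals the PSME4 value was 0.076 (adjusted p = 0.337).

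The balance between activators shifted within every depleted library. PSME3 to PSME1 was 5.48, 5.13 and 4.72 in the depleted libraries and 1.08, 1.05 and 1.03 in the replete libraries, the widest gap of the 6 ratios. PSME2 to PSME1, whose products share a ring, was 1.88, 1.52 and 1.84 in depleted and 0.789, 0.797 and 0.752 in replete libraries. PSME4 to PSME3 was 0.858, 0.746 and 0.936 in depleted and 1.3, 1.26 and 1.31 in replete libraries. PSMF1, the gene of PI31, was at 58.4, 64.1 and 65.1 CPM in depleted and 65.3, 64.8 and 62.7 CPM in replete libraries, which overlap (log2 fold change −0.04, edgeR adjusted p = 0.663). With library totals alone PSMF1 passed as lower (−0.27, adjusted p = 0.0101).

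The assembly chaperones of the core mostly fell, 3 of 4, with a median of −0.80. These proteins act in pairs that help the alpha ring to form, PSMG1 with PSMG2 and PSMG3 with PSMG4. PSMG4 was at 22.8, 23.6 and 23.6 CPM in depleted and 65.0, 61.3 and 63.0 CPM in replete libraries, a 2.7-fold decrease with little spread (log2 fold change −1.44, SE 0.09, edgeR adjusted p = 1.03e-08). Its partner PSMG3 fell by 0.65, from 367 ± 4.77 to 233.5 ± 33.3 CPM (n = 3, edgeR adjusted p = 1.91e-05). PSMG1 was at 33.5, 28.6 and 34.7 CPM in depleted and 62.1, 62.6 and 61.7 CPM in replete libraries, and fell by 0.94 (edgeR adjusted p = 1.25e-06). Its partner PSMG2 went the other way, at 53.8, 48.2 and 50.6 CPM in depleted and 33.5, 32.8 and 37.3 CPM in replete libraries, a rise of 0.56 (edgeR adjusted p = 0.000136). The 4 calls held in all 16 alternatives other than the test against 1.5-fold. PSMG2 has 289 exon bases in common with CEP76 on the other strand, which did not exceed 6.87 CPM in any library. As for PSMC1 and NRDE2, the part of these shared bases in the PSMG2 counts was not tested.

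Genes that act with the proteasome but fall outside the name rule were taken as a list of 33 symbols, of which 32 could be tested. In depleted cells 14 rose and 15 fell, while 39.1% of all genes tested were higher and 39.4% lower. The list's median log2 fold change was −0.13, beside −0.02 over all genes. Among subunits and bound proteins, PITHD1, whose product binds the proteasome, was at 127, 147 and 131 CPM in depleted and 27.3, 23.2 and 25.3 CPM in replete libraries. It had the largest rise of the list, 2.42 on the log2 scale (SE 0.10, edgeR adjusted p = 1.48e-10). AKIRIN2, needed for import of proteasomes into the nucleus, rose by 1.38, and POMP, the chaperone that completes the core, rose by 0.28 (edgeR adjusted p = 0.00162), or 0.050 with library totals (adjusted p = 0.468). UCHL5, a deubiquitinase of the cap, was at 66.8, 56.0 and 66.9 CPM in depleted and 127, 127 and 127 CPM in replete libraries, and fell by 1.005 (edgeR adjusted p = 2.36e-07). USP14, the other deubiquitinase that docks to the cap, fell by 0.89. ADRM1, the ubiquitin receptor that recruits UCHL5, had a log2 fold change of −0.03, which became 0.32 (adjusted p = 0.00173) with the GC and length trend removed and −0.26 (adjusted p = 0.0208) with library totals.

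The genes that control subunit transcription moved apart. NFE2L2 was at 329, 235 and 304 CPM in depleted and 63.9, 76.1 and 66.3 CPM in replete libraries, and rose by 2.07 (SE 0.12, edgeR adjusted p = 2.38e-08). NFE2L1 was at 87.2, 88.5 and 80.4 CPM in depleted and 128, 124 and 124 CPM in replete libraries, and fell by 0.55 (SE 0.08, edgeR adjusted p = 2.04e-05). NGLY1, which removes sugar chains from NRF1 as it leaves the endoplasmic reticulum, fell by 0.37 (edgeR adjusted p = 0.0149), a call lost without depleted replicate 3 (adjusted p = 0.0628). DDI2, the protease that cuts NRF1 into its active form, had 1 count in each depleted library and 0, 6 and 0 counts in the replete ones and was not tested. SYVN1, a ubiquitin ligase of the endoplasmic reticulum, rose by 0.50 (edgeR adjusted p = 0.000376).

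Around the proteasome, ubiquitin genes and factors that deliver substrates also moved both ways. UBB, a gene of ubiquitin itself, was at 228, 278 and 231 CPM in depleted and 588, 571 and 567 CPM in replete libraries, and fell by 1.23 (SE 0.08, edgeR adjusted p = 1.36e-08). UBA1 and UBA6, the enzymes that activate ubiquitin, fell by 0.63 and 0.62. VCP, the unfoldase that extracts ubiquitinated proteins, was at 108, 103 and 103 CPM in depleted and 204, 192 and 193 CPM in replete libraries, and fell by 0.91 (SE 0.07, edgeR adjusted p = 9.27e-08). FAF2, an adaptor that brings VCP to the endoplasmic reticulum, was at 207, 207 and 194 CPM in depleted and 56.0, 49.7 and 43.3 CPM in replete libraries, and rose by 2.03 (SE 0.10, edgeR adjusted p = 6.7e-10). NPLOC4, which with UFD1L links VCP to ubiquitin chains, rose by 1.34, while UFD1L had a value of −0.09 and did not pass, except as lower with library totals (−0.32), with upper quartile factors (−0.30) and without depleted replicate 2 (−0.18, adjusted p = 0.0196). Of 12 shuttle and unfoldase genes, 5 rose and 5 fell, and of 5 ubiquitin genes 2 rose and 3 fell. Over all genes tested, 39.1% were higher and 39.4% lower.

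**Figure D5:**
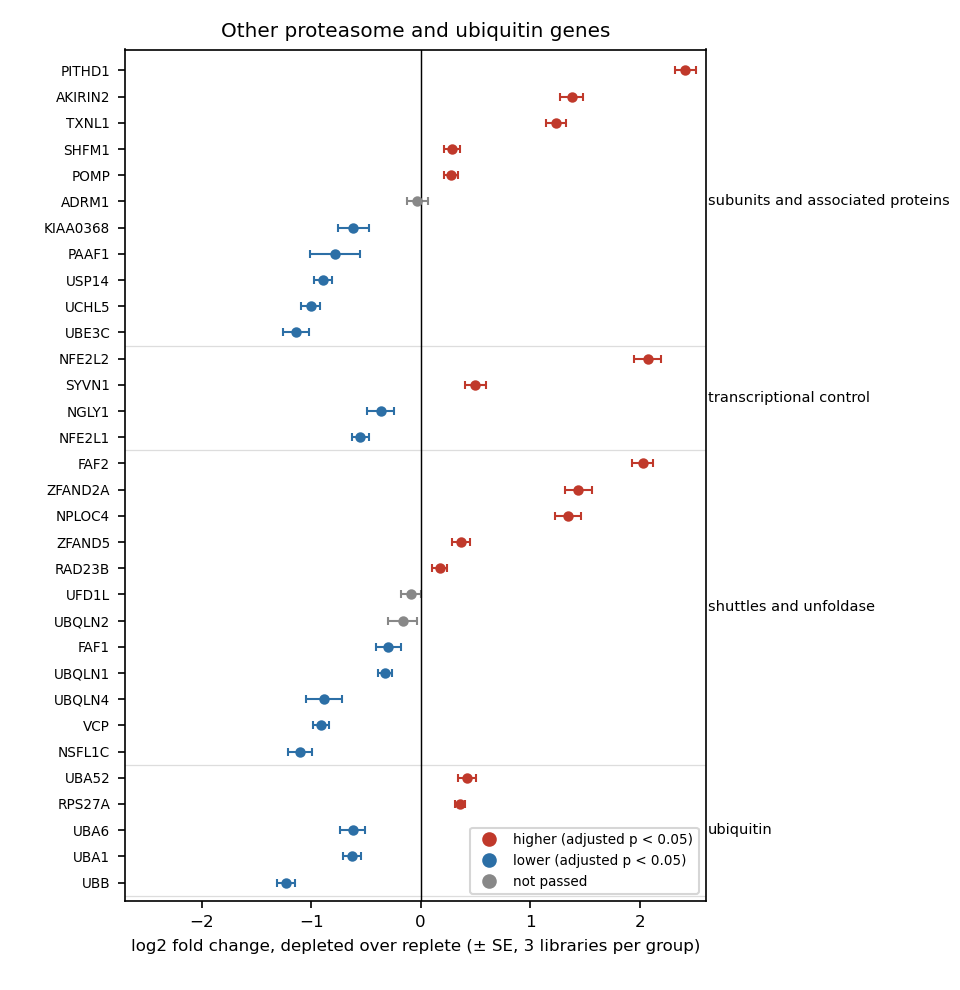
Log2 fold change (depleted over replete, TMM scaling, ± SE) of the 32 tested genes of the second list, grouped by role and coloured by the call in edgeR's test. PITHD1, NFE2L2 and FAF2 lie at 2.03 or above, and UBB, UBE3C, NSFL1C and UCHL5 between −1.23 and −1.005.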

How the data were processed

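RNA was sequenced as 3′-end libraries (QuantSeq, 500 ng of total RNA, per the labels' protocols). Bowtie2, edgeR and hg19 appear in the submitters' processing notes, with neither role nor version. Each deposited file gives the raw counts of 1 library by gene symbol, and the authors' counter, annotation and strand setting are not given in the sources used here. Counts of a symbol on several rows were summed, and no row lacked a gene. Genes passed edgeR's filterByExpr (minimum count 10, total 15), were scaled by TMM (factors 0.917 to 1.09) and compared between groups by edgeR 4.0.16 in R 4.3.3 (quasi-likelihood, robust), adjusted by Benjamini-Hochberg over all 12739 genes, two-sided, threshold 0.05. The SE is the log2 fold change divided by the root of the test's F. Partner ratios are printed as plain count ratios, and their log2 differences and exact permutation tests (scipy 1.17.1) used counts plus 0.5. On simulated counts (12528 genes) 84% of 100 genes changed by 1 on the log2 scale and 100% of 95 changed by 2 were found, and 6 of 185 calls were false. The simulation changed few genes, as many up as down, with the same dispersion for every gene. In the data 78.6% of genes were called, so these rates are not the error rates of the reported calls.

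Values in every library are given for the 2 genes of each class with the smallest p in each direction, for partner pairs, and for 3 genes per direction of the second list. Of its transcriptional control genes, NFE2L1, NFE2L2 and DDI2 have such values, and NGLY1 and SYVN1 are given by log2 fold change. Genes of that list that are not reported here are left out of its counts and plot. A few other genes are named, chosen after their values were seen. The members, lists and rules were chosen with earlier results of these data known. Annotation (GENCODE 29, GRCh38) served for exon overlaps, GC content and length only, since its build differs from that of the counts. Alternatives were DESeq2 1.42.0, limma-voom (limma 3.58.1), other scalings and filters, glmTreat against 1.5-fold, a replicate block, leaving out each library, the largest row per symbol, and removal of a GC and length trend (loess, span 0.5).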

Additional observations from a re-analysis of the deposited data

How the results depend on the processing

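Of the 46 tested members, 18 kept their side of the threshold in all 17 alternatives. Among these 18, PSMA6, PSMB2 and PSMD13 passed in no fit and turned sign in some. For members, 17 higher and 20 lower genes became 10 and 25 with library totals, 10 and 24 with upper quartile factors (all genes 4188 and 5866), and 5 and 10 with the test against 1.5-fold, where the second list had 7 higher and 7 lower and all genes 3324 higher and 3455 lower. Leaving out each library gave 14 to 17 higher and 17 to 21 lower members, 13 to 14 higher and 13 to 16 lower genes of the second list, and 4691 to 5257 higher and 4826 to 5368 lower of all genes. Among genes called in the reported fit or in the alternative, signs turned with library totals for PSMA4 (−0.019), PSMB4 (−0.18), PSMC3 (−0.017), PSMD7 (−0.038) and RAD23B (−0.053), with upper quartile factors for PSMA4 (−0.0018), PSMD7 (−0.021) and RAD23B (−0.036), and with the GC and length trend removed for ADRM1 (0.32). Called in neither fit, PSMA6, PSMB2, PSMD11 and PSMD13 turned with library totals (−0.10, −0.13, −0.11 and −0.13) and upper quartile factors (−0.081, −0.11, −0.096 and −0.11). Also uncalled, PSMB4 turned with upper quartile factors (−0.16), a mean CPM of at least 10 (−0.0495) and without depleted replicate 2 (−0.0055). Uncalled turns in single other fits were those of PSMB2, PSMD13, PSMF1 and ADRM1. The summed shares of all counts had log2 ratios of −0.28 (core), −0.02 (cap) and −0.05 (activators), and on TMM library sizes −0.055, 0.21 and 0.18, since the TMM factors differ between the groups. The cause of the other differences was not tested. Without 1 library the log2 ratios of the shares of all counts ran from −0.30 to −0.26, from −0.04 to 0.0034 and from −0.09 to −0.0031. Differences in the mean log2 ratio of partners (depleted minus replete) without 1 library ran from −1.24 to −1.01 (PSMB8 to PSMB5), 0.06 to 0.24 (PSMB9 to PSMB6), −1.18 to −1.07 (PSMB10 to PSMB7), 1.10 to 1.25 (PSME2 to PSME1), 2.22 to 2.33 (PSME3 to PSME1) and −0.69 to −0.53 (PSME4 to PSME3).

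Same-numbered libraries of the groups had correlations of 0.12, 0.0061 and 0.0366 between their deviations from the group means. Between libraries of different numbers they ran from −0.089 to 0.046. The labels name no pairing, and these few correlations cannot show whether same-numbered libraries shared a culture or batch. With the replicate block, 16 members and 4941 of all 12739 genes were higher, 17 members and 4999 genes were lower, and 14 genes of the second list were higher and 15 lower. The smallest p of a permutation within replicate numbers is 0.25. A level of 3 counts stood for 0.275 to 0.397 CPM, which limits statements on PSMA8, PSMB11 and DDI2.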

Other observations

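Neighbours of subunit genes, chosen after their values were seen, moved in both directions. PSMA3-AS1, the antisense gene next to PSMA3, was at 101.1, 111.4 and 99.7 CPM in depleted and 25.8, 20.4 and 23.3 CPM in replete libraries, a rise of 2.16 on the log2 scale (SE 0.10, edgeR adjusted p = 7.31e-10), while PSMA3 fell by 1.31. In the GENCODE 29 annotation their exons do not overlap, and whether they shared reads in the authors' counting was not tested. TAP1 and TAP2, the peptide transporter genes that lie beside PSMB8 and PSMB9 in the MHC region, also fell. TAP2 was at 49.3, 41.5 and 43.05 CPM in depleted and 138, 136 and 131 CPM in replete libraries (log2 fold change −1.60, edgeR adjusted p = 2.65e-09), and TAP1 fell by 0.56 (edgeR adjusted p = 0.000835). RNF31, whose exons overlap those of PSME2 by 21 bases on the other strand, was at 2.18 ± 0.441 CPM in depleted and 8.51 ± 1.53 CPM in replete cells (n = 3), with a log2 difference of −1.96 and an adjusted p of 4.72e-06 in edgeR's test. Among other overlaps on the opposite strand, PSMD13 shares 219 exon bases with SIRT3 and PSMG3 shares 60 with PSMG3-AS1. PSMD7 and PSMD11 share 550 and 354 bases with annotated genes not counted here. The part of these overlaps in the levels was not tested.

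Transcript features are given as a description, with no test. The 17 higher members had a median GC content of 48.3% and a median length of 1954 bases in the longest annotated transcript, and the 20 lower members 52.9% and 1398 bases, beside 48.2% and 3358 bases over all tested genes with a value. With the trend over these features removed, 13 members were higher and 17 lower, and of the 12396 genes in that fit 4844 were higher and 4997 lower. PSMA4, PSMB10, PSMC6, PSMD7, PSMD8, PSMD9, PSME2 and PSME4 no longer passed, and PSMD5 passed as lower (−0.25, adjusted p = 0.0286).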
